A study of Mus musculus with 12 samples.

Results

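Potassium channel genes were examined in mouse trigeminal nerve with and without plexiform neurofibroma. A gene was taken when its symbol began with Kcn, then letters and a digit, which 98 of the 47480 symbols in the table did. Of these, 76 had a CPM (counts per 1000000, on library sizes adjusted by TMM factors) above 1 in at least 6 of the 12 libraries and form the set described here. The set holds 73 pore-forming or auxiliary channel subunits and 3 RNAs transcribed opposite a channel gene, Kcnmb4os1, Kcnmb4os2 and Kcnq1ot1. All 12 libraries exceeded 1 CPM for 68 members, and no member passed by being present in a single group.

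Potassium channels let potassium leave the cell, which sets the resting potential, ends the action potential and limits repeated firing. In myelinated axons, Shaker-type channels sit beside the node of Ranvier under the myelin, while M-channels lie at the node and the initial segment. Glial cells around sensory neurons use inwardly rectifying channels to take up the potassium that neurons release.

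The study compared 6 libraries of normal trigeminal nerve, which serves sensation in the face, with 6 of plexiform neurofibroma from the same nerve. These benign tumours grow within the nerve sheath from Schwann lineage cells without working Nf1, the gene for the RAS inhibitor neurofibromin. Normal nerves had the genotype Nf1 flox/flox PostnCre-, and tumours Nf1 flox/flox PostnCre+, a Cre recombinase named for Postn. Both groups therefore carried floxed Nf1, Cre was present in the tumour group alone, and the effects of genotype, Cre and tumour state cannot be told apart. The labels used here give no age, sex or batch, and do not say that samples came from separate animals, so p-values measure the spread between these samples.

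Total estimated counts ran from 14160025 to 19989351 per library. Nf1 itself, counted over the whole gene, ran from 85.5 to 173 CPM (median 141) in normal nerve and from 69.6 to 93.1 (median 86.6) in tumour, a log2 fold change of -0.65 (SE 0.16, edgeR adjusted p = 0.0179). The groups overlapped, and removal of the floxed part of a gene need not lower its whole-gene count. Sensory neuron markers, which include genes of neuron cell bodies, were abundant in the tissue labelled nerve, with 12 genes summing to 4642 to 8490 CPM in normal nerve and 5696 to 7265 CPM in tumour. Of those 12, 1 was called lower (Snap25, 8.33%) and 0 higher, beside 8.63% and 10.0% of all tested genes. Schwann lineage markers summed to 1768 to 3049 CPM in normal nerve and 2990.5 to 3936 CPM in tumour. Of these, 4 of 6 rose (66.7%, beside 10.0% of all tested genes), and Sox10 among them lost its call in 7 of the 12 fits that leave out 1 library. The strongest signal of CNS (central nervous system) glia or skeletal muscle was carried by 3 libraries, by limits chosen after seeing the data. Normal nerve replicate 6 had 2206 CPM over 9 markers of CNS glia, against 51.1 to 384 CPM in the other normal nerves. Skeletal muscle markers summed to 396 CPM in normal nerve replicate 3 and to 1654 CPM in tumour replicate 1, against 41.5 CPM or less elsewhere. Other libraries were not free of such signal. Pituitary markers, of which 3 were tested and 0 called, summed to 6.09 to 69.7 CPM (median 20.8) in normal nerve. In tumour they summed to 3.21 to 25.6 CPM (median 4.06). Normal nerve replicate 5, not among the 3 libraries, stood at 28.8 CPM. In bulk RNA, fewer cells of a type and less RNA per cell cannot be told apart, and this holds for every difference given here.

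Most potassium channel genes that differed were lower in plexiform neurofibroma. By edgeR's quasi-likelihood F test, with Benjamini-Hochberg adjustment over 17236 genes and a call at an adjusted p under 0.05, 18 of the 76 members fell, or 23.7%, beside 8.63% of all tested genes. The 7 members that rose were 9.21% of the set, near the 10.0% of all tested genes. Calls in either direction numbered 25, where 18.7% of all tested genes were called. The falls took in the M-channel gene Kcnq3, the fast Shaw-type genes Kcnc1, Kcnc2 and Kcnc4, the pore of the large-conductance calcium-activated (BK) channel (Kcnma1) and a G-protein-gated inward rectifier (Kcnj3). Members that rose were Kcng1, Kcnn4, Kcnmb4 with its antisense RNAs Kcnmb4os1 and Kcnmb4os2, Kcna6 and Kcnk2. Reads of Kcnmb4 and its antisense RNAs cannot be told apart, so these are not separate rises. Without the RNAs transcribed opposite a channel gene, 5 of 73 members rose (6.85%) and 18 fell (24.7%). The log2 fold change, tumour over normal nerve, was below 0 for 60 members and above 0 for 16, with a median of -0.33 against -0.02 over all tested genes.

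**Figure D1:**
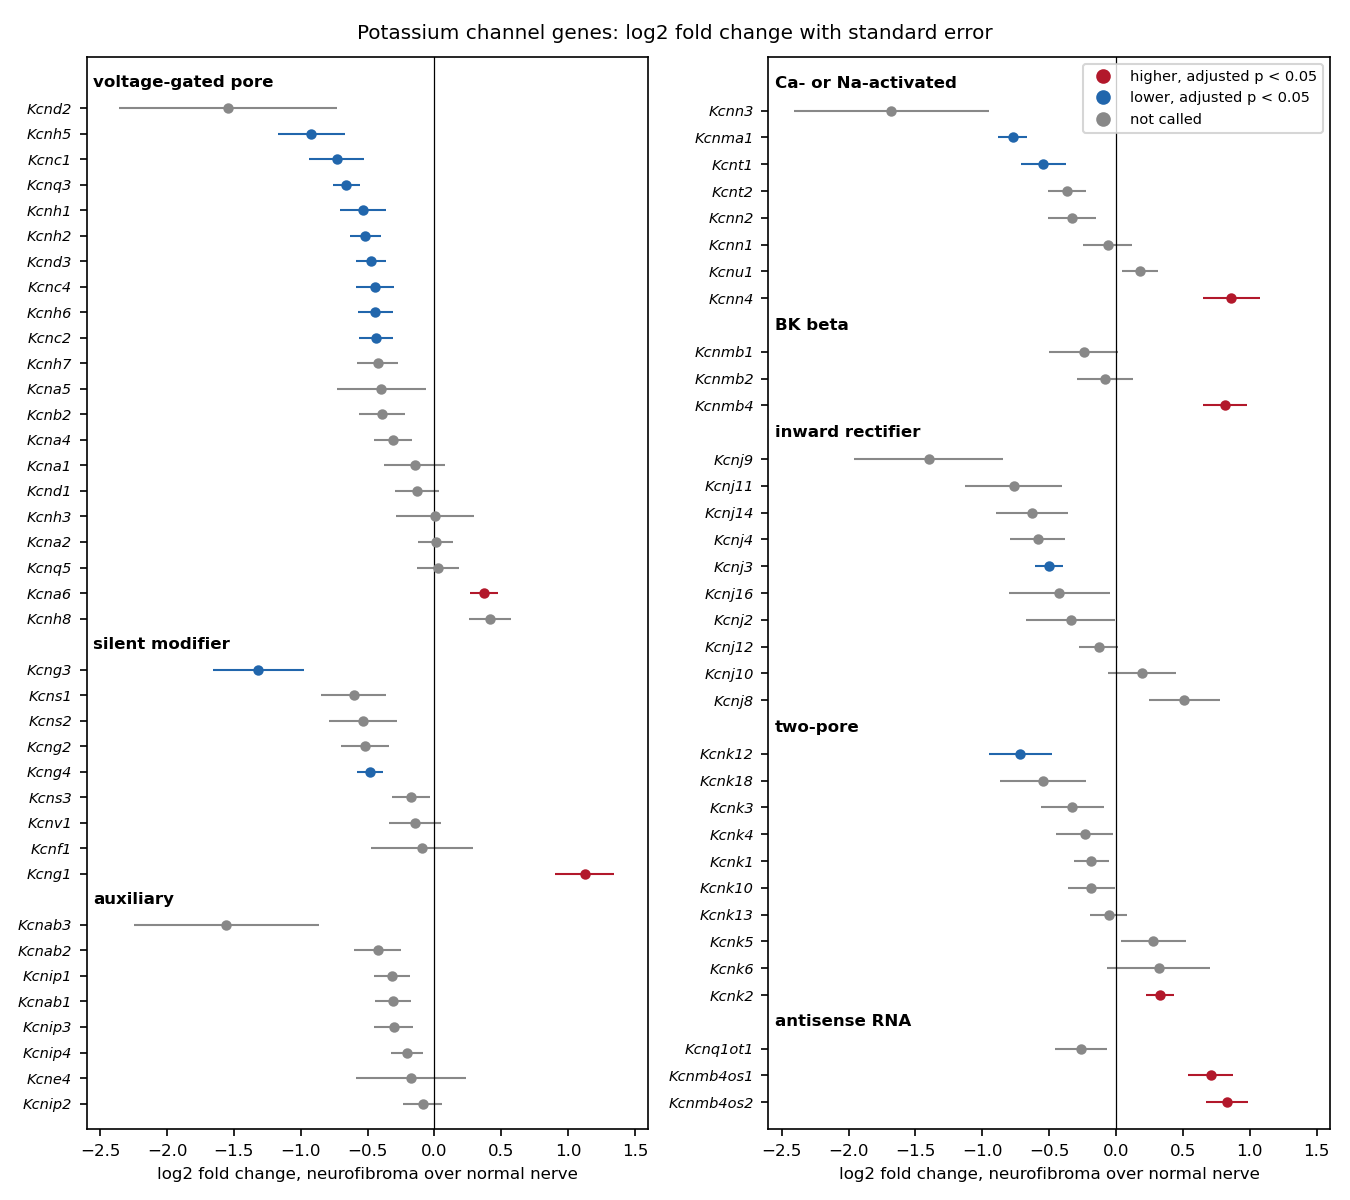
Log2 fold change (x axis, tumour over normal nerve, 6 libraries each) of 72 of the 76 members by role; points are edgeR estimates, bars 1 standard error, and colour marks calls at an adjusted p under 0.05. Blue points, 15 in number, lie mostly among voltage-gated pores, and the widest bars (Kcnn3, Kcnd2, Kcnab3, Kcnj9) belong to uncalled genes.

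Changes were modest in size. A change of at least 2-fold was found in 2 called members, Kcng1 at 2.18 times and Kcng3 at 0.401 times its normal level. Groups were apart for 10 members, beside 7.39% of all tested genes. The lowest tumour library lay above the highest normal one for 3 members, where 4.40% of all tested genes did so. The reverse held for 7 members, beside 2.99% of tested genes. When each library was left out in turn, 14 of the 25 calls held in all 12 fits, and the number of lower calls ranged from 10 (without normal nerve replicate 4, or tumour replicate 2, 4 or 6) to 26 (without normal nerve replicate 6). It was 11 without normal nerve replicate 5. The share of all tested genes called lower moved too, from 4.62% without tumour replicate 4 to 14.2% without normal nerve replicate 6. A correction for transcript length kept 18 of the 25 calls and lost, among others, those of Kcnc1, Kcnc2, Kcnc4, Kcnh1, Kcnt1 and Kcnmb4os1. Without the 3 libraries with the strongest CNS glia or muscle signal, 22 calls remained, and those of Kcnc1, Kcnc4 and Kcnt1 were lost. Of the 22 symbols below the expression limit, 4 were tested and 1 was called, Kcnj6.

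Voltage-gated pore subunits, which open on depolarisation, made up 25 members. Of these, 12 fell (48%), 1 rose (4%) and 12 were not called, with a median log2 fold change of -0.44. Over all tested genes, 8.63% fell and 10.0% rose. Kcnq3 (chr15:65986387-66286642, GRCm38, minus strand) encodes a subunit of the M-channel, a slow brake on repetitive firing. Kcnq3 ran from 85.8 to 128 CPM (median 107) in normal nerve and from 61.7 to 75.4 CPM (median 67.2) in tumour. The groups were apart, at a log2 fold change of -0.66 (SE 0.10, edgeR adjusted p = 0.00227). Its relative Kcnq5 had medians of 10.4 and 10.8 CPM.

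Kcnc genes encode channels that open and close fast and let neurons fire at high rates. Kcnc1, Kcnc2 and Kcnc4 fell, but none of these 3 held its call in every leave-one-out fit. Kcnc1 ran from 39.3 to 95.5 CPM (median 54.1) in normal nerve and from 26.3 to 44.7 CPM (median 34.1) in tumour, and its highest value was that of normal nerve replicate 6. Its log2 fold change of -0.73 (SE 0.21, edgeR adjusted p = 0.029) was -0.52 without that library (adjusted p = 0.0193). Without all 3 libraries that stood apart it missed the threshold (adjusted p = 0.0507). Kcnc2 ran from 26.9 to 37.6 CPM (median 29.0) in normal nerve and from 17.5 to 26.8 CPM (median 22.6) in tumour, a log2 fold change of -0.44 (SE 0.13, edgeR adjusted p = 0.0301). Its groups did not overlap, though the highest tumour and the lowest normal nerve nearly met. Kcnc4 fell from a median of 55.2 to 40.1 CPM, at -0.45 on the log2 scale (SE 0.14), with overlapping groups, and lost its call in 9 of the 12 leave-one-out fits. With the length correction, Kcnc1, Kcnc2 and Kcnc4 were not called (edgeR adjusted p = 0.0718, 0.0668 and 0.0577).

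Of the 7 Kcnh genes, 4 fell (57.1%, beside 8.63% of all tested genes). Kcnh2, the rapid delayed rectifier known from the heart, ran from 68.2 to 111 CPM (median 89.5) in normal nerve and from 57.7 to 71.9 CPM (median 62.1) in tumour. On the log2 scale the difference was -0.52 (SE 0.12, edgeR adjusted p = 0.0115), the groups overlapped slightly, and the call held in all 12 leave-one-out fits. Its close relative Kcnh6 had medians of 23.5 and 16.7 CPM (log2 fold change -0.44, SE 0.13). Kcnh1 and Kcnh5, the ether-a-go-go channels, had medians of 54.6 and 15.2 CPM in normal nerve and of 35.6 and 8.57 CPM in tumour. The calls of Kcnh6, Kcnh1 and Kcnh5, at edgeR adjusted p = 0.0318, 0.0477 and 0.0241, were lost in 7, 10 and 5 of the 12 leave-one-out fits. Kcnh7 had medians of 244 and 178 CPM and was not called (log2 fold change -0.43, edgeR adjusted p = 0.0643).

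Kcnd3 (chr3:105452330-105674002, plus strand), which carries a fast, transient A-type current, ran from 90.7 to 117 CPM (median 102.0) in normal nerve and from 59.2 to 88.5 CPM (median 78.5) in tumour. The groups did not overlap, at a log2 fold change of -0.48 (SE 0.11, edgeR adjusted p = 0.0121).

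Of the 5 Shaker-type Kcna members, 0 were called lower by edgeR, DESeq2 or limma-voom, and 1 had a lower value at an unadjusted edgeR p under 0.05. Kcna6 rose. It ran from 86.0 to 111 CPM (median 90.7) in normal nerve and from 98.5 to 158 CPM (median 117) in tumour. The change came to 0.37 on the log2 scale (SE 0.11, edgeR adjusted p = 0.028), with overlapping groups, and the call was lost without normal nerve replicate 3, 4 or 5 or tumour replicate 4. Kcna2, an axonal channel beside the node, had the highest level of any voltage-gated pore at 71.7 CPM per kb of its longest transcript. It ran from 569 to 1066 CPM (median 834) in normal nerve and from 728 to 923 CPM (median 834) in tumour, with a log2 fold change of 0.01 (SE 0.13, edgeR adjusted p = 0.972). The direction of so small a value turned in some fits, and the tumour values lay within the range of the normal ones. Its partner Kcna1 had medians of 301 and 236 CPM (log2 fold change -0.15, SE 0.23, edgeR adjusted p = 0.681). Kcna4 and Kcna5 were not called either, with log2 fold changes of -0.31 and -0.40, and whether Kcna genes differ from other families was not tested. Over the 12 uncalled voltage-gated pores, log2 fold changes ran from -1.54 (Kcnd2) to 0.41 (Kcnh8). The Kcnd2 value rested on normal nerve replicate 6: it was 0.40 without that library and 0.32 without the 3 libraries that stood apart.

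**Figure D2:**
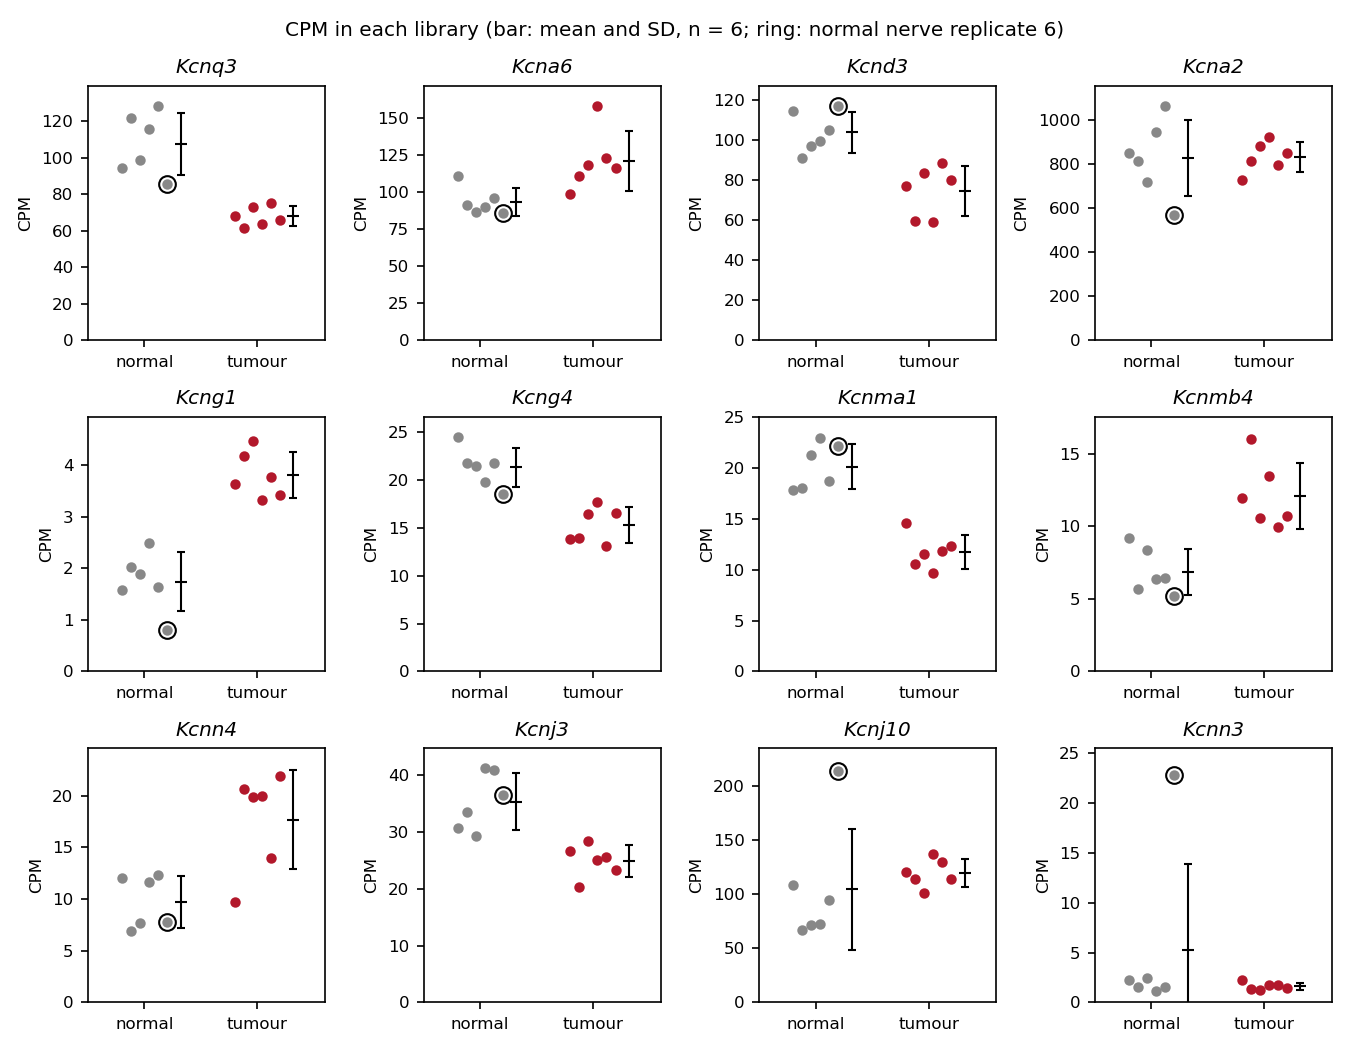
CPM (y axis, from 0) of 12 members in each library of normal nerve (grey) and tumour (red); beside the points stand the mean and SD of 6 libraries, and rings mark normal nerve replicate 6. Groups are apart for Kcnq3, Kcnd3, Kcng1, Kcng4, Kcnma1, Kcnmb4 and Kcnj3, overlap for Kcna6, Kcna2 and Kcnn4, and for Kcnj10 and Kcnn3 the ringed library stands far above the rest at 213 and 22.8 CPM.

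Silent modifier subunits form no channel alone and change the behaviour of delayed rectifier pores. Of 9 measured, 1 rose (11.1%) and 2 fell (22.2%), beside 10.0% and 8.63% of all tested genes. Kcng1 (chr2:168260117-168281736, minus strand) showed the largest rise of the set, from 0.797 to 2.50 CPM (median 1.77) in normal nerve to 3.32 to 4.48 CPM (median 3.71) in tumour. On the log2 scale the difference was 1.12 (SE 0.22, edgeR adjusted p = 0.0062). Groups did not overlap, although the counts are low. Its relative Kcng3 fell the most among called members, with 2.72 to 11.1 CPM (median 7.96) in normal nerve and 1.63 to 5.33 CPM (median 3.22) in tumour. The change came to -1.32 on the log2 scale (SE 0.34, edgeR adjusted p = 0.019), and the lowest normal nerve, replicate 6, lay among the tumours. Kcng4 (chr8:119623854-119635680, minus strand) ran from 18.5 to 24.5 CPM (median 21.6) in normal nerve and from 13.1 to 17.7 CPM (median 15.2) in tumour, apart in all libraries (log2 fold change -0.48, SE 0.10, edgeR adjusted p = 0.00639). The direction thus differed between Kcng genes, and each of the 3 calls held in all 12 leave-one-out fits. Kcns3, the most abundant silent subunit at 33.7 CPM per kb, had medians of 109 and 94.9 CPM and was not called (edgeR adjusted p = 0.396). The 6 uncalled silent subunits had log2 fold changes from -0.61 (Kcns1) to -0.09 (Kcnf1).

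Auxiliary subunits of voltage-gated channels had 0 of 8 members called, where 18.7% of all tested genes were called in either direction. All 8 log2 fold changes were below 0, at a median of -0.31, beside 9049 of the 17236 tested genes. Kcnab2, a cytoplasmic beta subunit that binds Shaker-type pores, had the highest level of the whole set at 179 CPM per kb. It ran from 412 to 995 CPM (median 875) in normal nerve and from 527 to 704.5 CPM (median 574) in tumour, with a log2 fold change of -0.42 (SE 0.17, edgeR adjusted p = 0.102). The 412 CPM belonged to normal nerve replicate 6, and every other normal nerve, from 774 CPM up, lay above all tumours. Without that library the log2 fold change was -0.56 (edgeR adjusted p = 0.00158). The 4 Kcnip genes, calcium sensors that bind Kcnd pores, had log2 fold changes between -0.32 and -0.09. Kcne4, a single-span subunit, was the member nearest the expression limit, above 1 CPM in 4 libraries of each group (log2 fold change -0.18, SE 0.41).

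The BK channel, which opens with calcium and depolarisation together, changed in opposite directions in its subunits. Kcnma1 (chr14:23289431-24014491, minus strand), the pore, ran from 17.8 to 22.9 CPM (median 19.96) in normal nerve and from 9.69 to 14.6 CPM (median 11.7) in tumour. All tumours lay below all normal nerves, at a log2 fold change of -0.77 (SE 0.11, edgeR adjusted p = 0.00163). Kcnmb4 (chr10:116417861-116473878, minus strand), the beta subunit found mostly in neurons, ran from 5.18 to 9.18 CPM (median 6.41) in normal nerve and from 9.95 to 16.0 CPM (median 11.3) in tumour. It was 1.76 times as high, with groups apart (log2 fold change 0.82, SE 0.16, edgeR adjusted p = 0.0066). Neither Kcnmb1, the smooth muscle form, nor Kcnmb2 was called (log2 fold changes -0.24 and -0.08, SE 0.26 and 0.21).

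Both antisense RNAs at Kcnmb4 rose with it. Kcnmb4os2 ran from 2.26 to 3.06 CPM (median 2.59) in normal nerve and from 3.78 to 6.59 CPM (median 4.49) in tumour, with groups apart (log2 fold change 0.83, SE 0.16, edgeR adjusted p = 0.00561). Kcnmb4os1 had medians of 4.98 and 7.62 CPM, overlapping slightly (log2 fold change 0.71, SE 0.17, edgeR adjusted p = 0.0143). Since the strand used in counting is not given, reads of these 3 overlapping genes cannot be told apart, and they are not 3 separate results. Among other called members, Kcna6, Kcnd3, Kcnh1, Kcnh2, Kcnj3, Kcnk2, Kcnma1 and Kcnq3 also overlap an annotated gene on the opposite strand. Kcnq1ot1, the imprinted RNA opposite Kcnq1, had medians of 87.7 and 74.0 CPM and was not called (log2 fold change -0.26, SE 0.20).

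Other calcium- or sodium-activated pores gave 1 rise and 1 fall. With Kcnma1 the class had 8 members, of which 12.5% rose and 25% fell, beside 10.0% and 8.63% of all tested genes. Kcnn4 (chr7:24370263-24386690, plus strand), the intermediate-conductance calcium-activated channel known from red blood cells and T cells, ran from 6.92 to 12.3 CPM (median 9.69) in normal nerve and from 9.68 to 21.9 CPM (median 19.9) in tumour. Tumour replicate 1, at 9.68 CPM, lay among the normal nerves and the other 5 tumours above them. On the log2 scale the difference was 0.86 (SE 0.22, edgeR adjusted p = 0.0169). Kcnt1, a sodium-activated channel, fell from a median of 136 to 80.8 CPM (log2 fold change -0.55, SE 0.17, edgeR adjusted p = 0.0395). Its groups overlapped, and the call was lost in 8 of 12 leave-one-out fits and, at adjusted p = 0.0912, with the length correction. Kcnn3, a small-conductance channel, had the largest fall of any uncalled member (log2 fold change -1.68, SE 0.73, edgeR adjusted p = 0.12). That value rested on normal nerve replicate 6 at 22.8 CPM, against 1.11 to 2.42 CPM in the other normal nerves and 1.27 to 2.25 CPM in tumours, and without it the log2 fold change was -0.12. The other uncalled pores of this class, Kcnt2, Kcnn2, Kcnn1 and Kcnu1, had log2 fold changes of -0.37, -0.33, -0.06 and 0.18.

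Inward rectifiers numbered 10, of which 1 fell and 0 rose. The fall was 10% of the class, near the 8.63% of all tested genes that fell, while 10.0% of them rose. Kcnj3 (chr2:55435970-55598145, plus strand), a G-protein-gated subunit that carries inhibitory receptor signals, ran from 29.3 to 41.2 CPM (median 35.0) in normal nerve and from 20.3 to 28.4 CPM (median 25.4) in tumour. The groups were apart (log2 fold change -0.50, SE 0.10, edgeR adjusted p = 0.00758). Its partner Kcnj6 was just outside the expression limit, above 1 CPM in 5 libraries, and was lower in tumour (log2 fold change -1.65, edgeR adjusted p = 0.0341), with normal nerve replicate 6 highest at 4.12 CPM. That call was lost in 5 of the 12 leave-one-out fits. Kcnj10, the main potassium uptake channel of glia, was the most abundant inward rectifier at 20.7 CPM per kb. It ran from 66.4 to 213 CPM (median 83.5) in normal nerve and from 101 to 137 CPM (median 117) in tumour, with a log2 fold change of 0.19 (SE 0.25, edgeR adjusted p = 0.622). The 213 CPM belonged to normal nerve replicate 6; without that library the log2 fold change was 0.53 (edgeR adjusted p = 0.00966). Kcnj8, a pore of ATP-sensitive channels in vessels, had the largest rise among uncalled members, from a median of 1.98 to 2.48 CPM (log2 fold change 0.51, SE 0.27, edgeR adjusted p = 0.189). The lowest value among the 9 uncalled inward rectifiers was that of Kcnj9, at -1.40, which also rested on normal nerve replicate 6 and was -0.34 without it.

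Two-pore channels, which carry background potassium current, had 10 members, of which 1 rose and 1 fell, both close to the threshold. That is 10% each way, near the 10.0% of all tested genes that rose and the 8.63% that fell. Kcnk2, a stretch- and heat-sensitive channel, ran from 25.9 to 40.0 CPM (median 27.0) in normal nerve and from 32.9 to 40.0 CPM (median 36.4) in tumour. Normal nerve replicate 6 was nearly as high as the highest tumour. The log2 fold change came to 0.33 (SE 0.11, edgeR adjusted p = 0.0474). Kcnk12 fell from a median of 5.30 to 3.44 CPM with overlapping groups (log2 fold change -0.72, SE 0.23, edgeR adjusted p = 0.0483). The calls were lost in 10 and 11 of the 12 leave-one-out fits. Neither Kcnk1, the most abundant at 45.8 CPM per kb (medians 100.4 and 94.6 CPM), nor Kcnk18, a channel of pain-sensing neurons (medians 17.5 and 12.6 CPM), was called. Kcnk18 stood at 4.85 CPM in normal nerve replicate 6 against 12.8 CPM or more in the others, and without that library its log2 fold change was -0.74 (edgeR adjusted p = 0.014). The 8 uncalled two-pore members ran from -0.54 (Kcnk18) to 0.32 (Kcnk6) on the log2 scale.

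**Figure D3:**
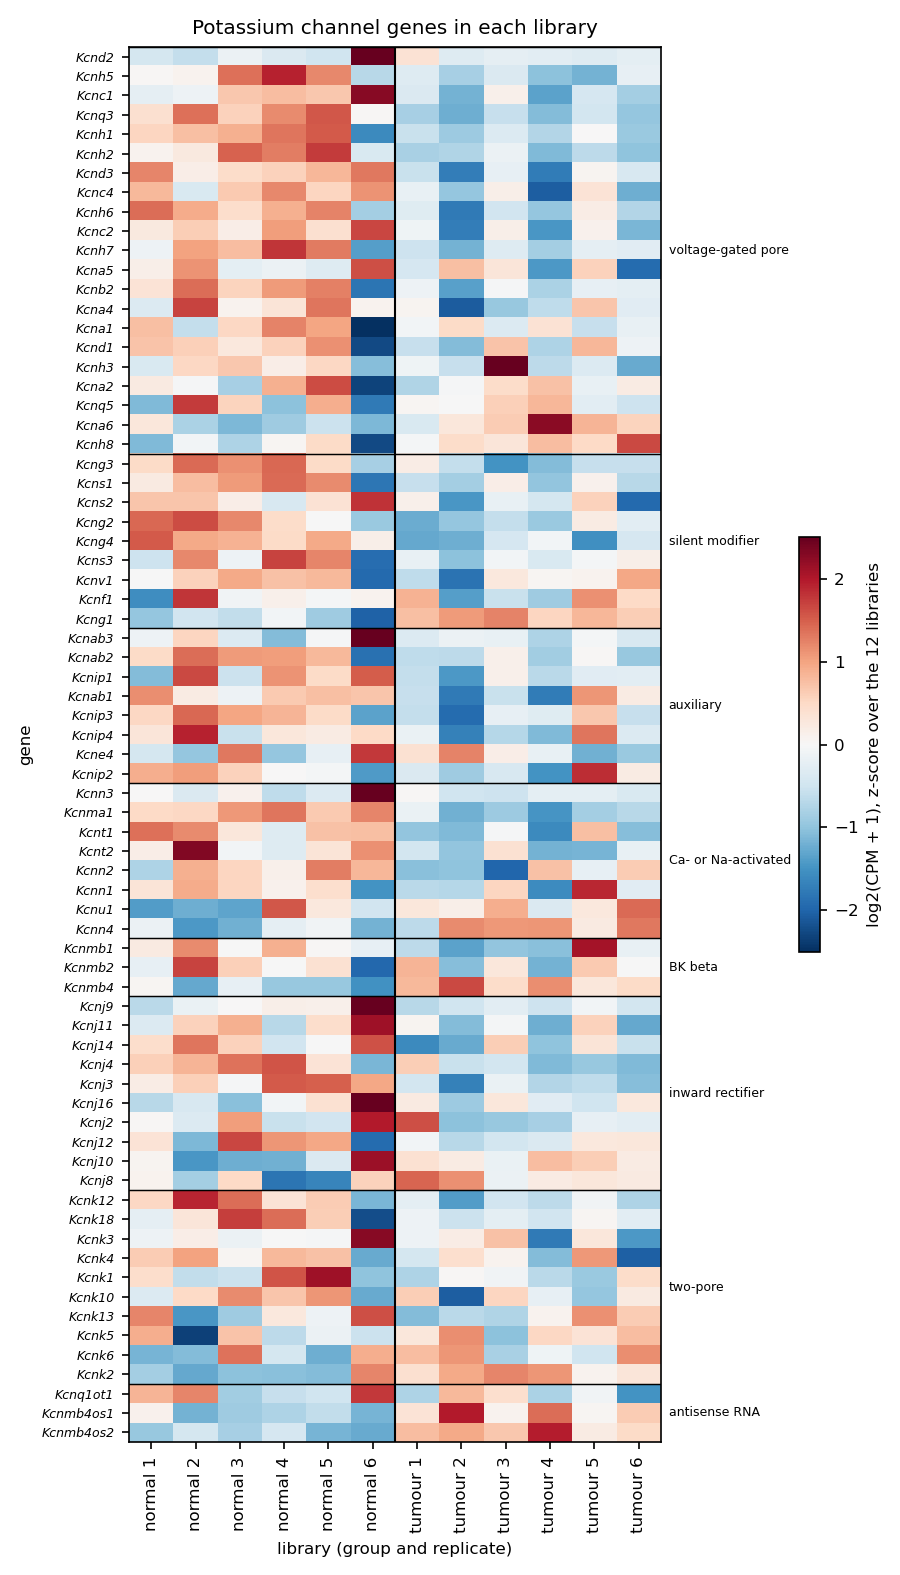
72 of the 76 members (rows, by role) in each library (columns) as a z-score of log2(CPM + 1) over the 12 libraries, with colours ending at -2.5 and 2.5. Normal nerve replicate 6 differs from the other normal nerves in many rows, being the lowest of its group for 40 and the highest for 20 of the 76 members.

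Normal nerve replicate 6 stood apart for many members. It was the lowest of the 6 normal nerves for 40 members and the highest for 20. In 5 of these it exceeded the next normal nerve more than 2-fold: Kcnd2 (13.9 times), Kcnn3 (9.42), Kcnj9 (6.35), Kcnab3 (5.60) and Kcnj16 (2.81). Kcnd2 and Kcnj9, for example, reached 28.0 and 26.5 CPM there and at most 2.01 and 4.17 CPM in the other normal nerves. Kcnj16, at a log2 fold change of -0.42 with all libraries, was at 0.14 without this one. The same library held the highest CNS glia sum of its group, given above, and the lowest sensory neuron sum, 4642 CPM. Among the CNS glia markers, 8 of 9 were tested and 0 were called, with sums of 51.1 to 2206 CPM in normal nerve and 62.9 to 662 CPM in tumour; Opalin, a marker of myelinating glia of the brain, was at 0 in 2 normal nerves and 3 tumours. Without replicate 6, 26 members fell and 8 rose, where 14.2% of all tested genes fell and 14.6% rose. With the CNS glia score as a covariate 22 members fell, beside 11.4% of all tested genes. With the sensory neuron score 23 fell and 8 rose, beside 11.4% of all tested genes in each direction. Calls of lower genes thus became more frequent over all genes as well as among the members.

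Markers of some other cell types were higher in tumour in the same libraries, and those of others were not. Myelinating Schwann cell markers rose in 4 of 10, with sums of 4149 to 14329 CPM in normal nerve and 12135 to 22267 CPM in tumour, and fibroblast markers in 4 of 7, at 142 to 1058 and 1175 to 2743 CPM. Macrophage markers rose in 2 of 9, at 51.4 to 212 and 135 to 310 CPM. In turn these rises were 40%, 57.1% and 22.2% of their lists, beside 10.0% of all tested genes. Of 8 endothelial markers, 1 was called lower (Cdh5, 12.5%) and 0 higher, beside 8.63% and 10.0% of all tested genes. Among 6 nonmyelinating Schwann cell and 4 mast cell markers, 0 were called. None of these lists had a marker at 0 in any library, and their part in the channel results was not tested.

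The 11 calls that did not hold in every leave-one-out fit differed in how many libraries they needed. Kcnk12 was called without normal nerve replicate 6 and in no other such fit. For Kcnk2 and Kcnh1, the call held without normal nerve replicate 6 or tumour replicate 5 and was lost without any other library. Kcnt1 held it without normal nerve replicate 4 or 6 or tumour replicate 3 or 5, and Kcnc4 without normal nerve replicate 2 or tumour replicate 3 or 5. Kcnh6 lost its call without normal nerve replicate 1, 2, 4 or 5 or tumour replicate 2, 4 or 6. Kcnc1 lost it without normal nerve replicate 4 or 5 or tumour replicate 2, 4 or 6, Kcnc2 without normal nerve replicate 4 or tumour replicate 2, 4 or 6, and Kcnh5 without normal nerve replicate 3, 4 or 5 or tumour replicate 2 or 4. Kcna6 is given above. In all 11, the log2 fold change kept its sign.

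**Figure D4:**
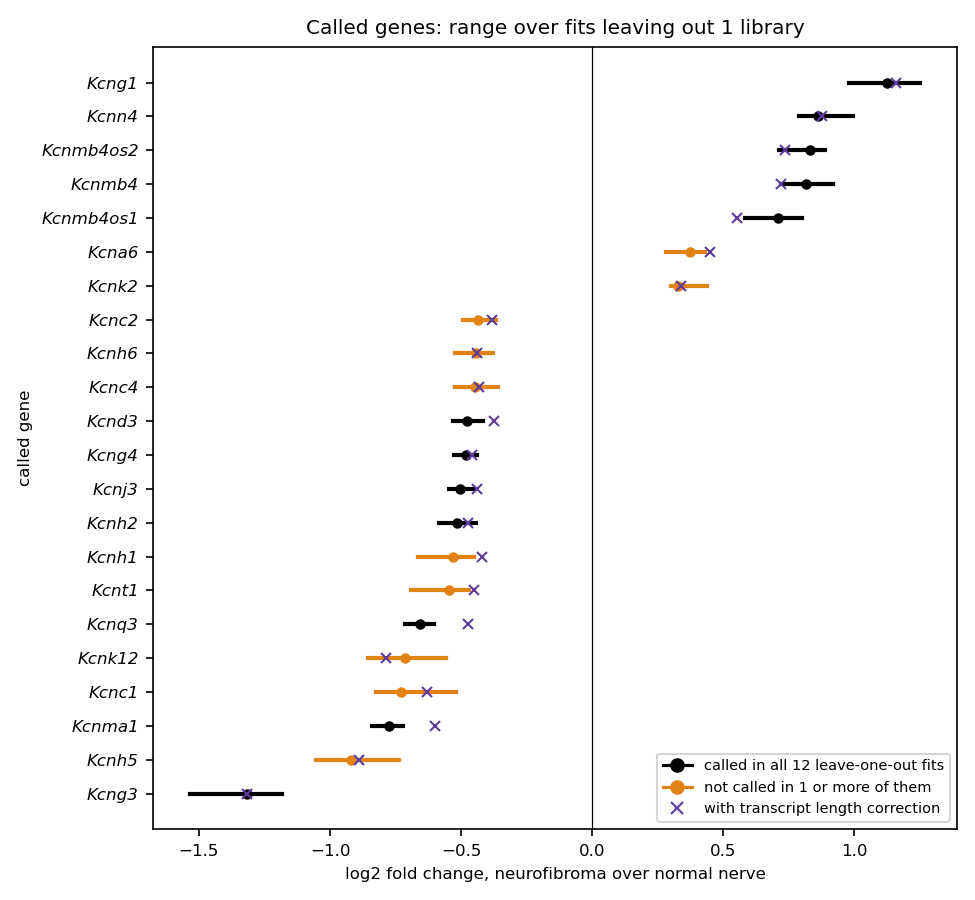
Range of the log2 fold change (x axis, tumour over normal nerve) of 22 called members over the 12 fits that leave out 1 library, with the value from all libraries as a point and the length-corrected value as a cross. Black marks the 12 genes drawn that were called in all 12 fits and orange the 10 lost in at least 1; no range crosses 0.

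The sequence before the start site is shown for 4 called members, Kcnd3 and Kcng4, which fell, and Kcnmb4os2 and Kcnn4, which rose, to let genes of opposite direction be compared. They were chosen after their values were seen, from the 14 called in all 12 leave-one-out fits. Reads of Kcnmb4os2 cannot be told apart from those of Kcnmb4 and Kcnmb4os1, as given above, so its rise is not separate from theirs. RefSeq promoter entries on GRCm38.p6 matched 54 members, 18 of the 25 called ones among them. Each run is the 250 bases before the RefSeq start, 5′ to 3′ on the gene's own strand, with matches to a searched motif in capitals. That start can differ from the GENCODE coordinates given above, as for Kcnd3, where it is 105451890 by RefSeq and 105452330 by GENCODE. The windows are chr3:105451640-105451889 (plus strand) for Kcnd3, chr8:119635681-119635930 (minus) for Kcng4, chr10:116472913-116473162 (plus) for Kcnmb4os2 and chr7:24370013-24370262 (plus) for Kcnn4.
Kcnd3: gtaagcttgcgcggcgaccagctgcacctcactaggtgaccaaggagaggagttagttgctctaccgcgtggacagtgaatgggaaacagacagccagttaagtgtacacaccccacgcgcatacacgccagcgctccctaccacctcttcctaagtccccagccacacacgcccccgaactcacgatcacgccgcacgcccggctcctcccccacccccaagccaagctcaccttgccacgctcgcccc
Kcng4: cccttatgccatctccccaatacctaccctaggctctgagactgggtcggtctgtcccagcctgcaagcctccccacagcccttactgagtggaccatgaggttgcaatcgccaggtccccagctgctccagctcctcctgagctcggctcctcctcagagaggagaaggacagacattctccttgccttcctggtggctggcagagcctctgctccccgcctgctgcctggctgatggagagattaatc
Kcnmb4os2: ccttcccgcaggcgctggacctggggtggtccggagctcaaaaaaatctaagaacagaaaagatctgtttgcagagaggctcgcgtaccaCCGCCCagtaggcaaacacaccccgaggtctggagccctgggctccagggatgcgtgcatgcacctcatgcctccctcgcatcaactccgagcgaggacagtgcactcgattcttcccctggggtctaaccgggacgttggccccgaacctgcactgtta
Kcnn4: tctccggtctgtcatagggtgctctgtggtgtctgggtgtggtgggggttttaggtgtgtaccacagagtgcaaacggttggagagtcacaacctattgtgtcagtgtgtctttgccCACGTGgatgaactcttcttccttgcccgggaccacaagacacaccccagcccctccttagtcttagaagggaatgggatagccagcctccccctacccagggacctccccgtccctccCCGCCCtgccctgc
Motifs were searched on both strands: the cAMP response element TGACGTCA, the AP-1 site TGANTCA, the E-box CACGTG, the GC box GGGCGG and the TATA box TATAAA, none of which overlapped another in these windows. Kcnn4 held 1 E-box and 1 GC box, Kcnmb4os2 held 1 GC box, and neither Kcnd3 nor Kcng4 held a match. That contrast did not extend to other called members. Kcng3 and Kcnh5, which fell, held 4 and 1 GC boxes, while Kcnj3, which fell, and Kcna6, which rose, held 0. Whether any motif goes with direction was not tested. Of 32851 such windows over all genes, 6.02% held an E-box, 32.7% a GC box, 12.4% a TATA box, 6.75% an AP-1 site and 1.55% a cAMP response element. CG dinucleotides numbered 18 in Kcnd3, 15 in Kcnmb4os2, 6 in Kcnn4 and 4 in Kcng4, against a median of 6 over all windows. By RefSeq, Kcnmb4os2 starts at 116473163 (plus strand), 360 bases from the start of Kcnmb4 at 116473523 (minus strand). The Kcnmb4os2 start and its window lie inside the Kcnmb4 gene, whose coordinates are given above. A match here is a description of letters and not a binding site.

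Genes whose products hold, cluster or tune potassium channels were read from a list of 28, of which 25 were tested. Of these, 7 fell (28%) and 2 rose (8%), with a median log2 fold change of -0.27. Over all tested genes, 8.63% fell and 10.0% rose, so the rises were near that share. The falls included scaffolds of the Shaker-type channels beside the node. Dlg4, a PDZ scaffold that binds Shaker-type channels, ran from 125 to 204 CPM (median 139.6) in normal nerve and from 77.5 to 115 CPM (median 95.8) in tumour, with groups apart (log2 fold change -0.65, SE 0.13, edgeR adjusted p = 0.0066). Its relative Dlg2 had a log2 fold change of -0.58 (SE 0.11). Cntnap2, the adhesion protein that anchors Shaker-type channels on the axon, ran from 191 to 292 CPM (median 237) in normal nerve and from 161 to 189 CPM (median 180.3) in tumour (log2 fold change -0.42, SE 0.11, edgeR adjusted p = 0.0181). Its groups were just apart. Lgi2, a secreted protein that binds the ADAM receptors at such sites, had a median of 210 CPM in normal nerve and 133 in tumour, with groups apart (log2 fold change -0.67, SE 0.11, edgeR adjusted p = 0.00299). The other 3 falls, named after their values were seen, were Cntn2, the axonal partner of Cntnap2, Abcc8, a regulator of ATP-sensitive channels, and Vapb, a membrane tether of the endoplasmic reticulum (log2 fold changes -0.52, -0.55 and -0.25). Abcc8 lost its call without normal nerve replicate 5 or tumour replicate 1, 2 or 4, and Vapb lost it in every such fit other than those without normal nerve replicate 1 or 6 or tumour replicate 5. With the length correction, Cntnap2, Abcc8 and Vapb were not called (edgeR adjusted p = 0.0907, 0.0509 and 0.153).

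Both partner genes that rose are known from Schwann cells. Lgi4, which Schwann cells secrete and need for myelination, ran from 21.1 to 46.8 CPM (median 32.8) in normal nerve and from 49.9 to 90.3 CPM (median 72.6) in tumour. The groups were apart at 2.07-fold (log2 fold change 1.05, SE 0.18, edgeR adjusted p = 0.00391). Epb41l2, a membrane skeleton protein of myelinating cells, had medians of 125 and 207 CPM, with overlap (log2 fold change 0.70, SE 0.18, edgeR adjusted p = 0.018), and was not called without the 3 libraries that stood apart (adjusted p = 0.0579). Lgi4 overlaps Fxyd3 on the opposite strand, so reads of these 2 genes cannot be told apart. Schwann lineage and myelinating markers, given above, were higher in the same tumours.

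Genes that move potassium by pumping or cotransport numbered 20, of which 19 were tested, 4 rose and 4 fell (21.1% each way). Over all tested genes, 10.0% rose and 8.63% fell. Atp1b1, a beta subunit of the sodium-potassium pump, fell from a median of 1013 to 639 CPM (log2 fold change -0.60, SE 0.10). Slc12a5, the neuronal cotransporter, was called on 1 library, normal nerve replicate 6 at 154 CPM; its medians were 1.61 and 1.10 CPM, and without that library the log2 fold change was -0.49 (edgeR adjusted p = 0.135).

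The rises were in pump regulators and other cotransporters. Fxyd1 and Fxyd3, small proteins that tune the sodium-potassium pump, rose 2.28-fold and 2.46-fold with groups apart (edgeR adjusted p = 0.00205 and 0.0028). Reads of Fxyd3 and Lgi4, which overlap on opposite strands, cannot be told apart, so their rises are not separate results. Slc12a2, which brings sodium, potassium and chloride into the cell, ran from 196 to 275 CPM (median 236) in normal nerve and from 283 to 390.5 CPM (median 353) in tumour. Its groups were apart (log2 fold change 0.55, SE 0.11, edgeR adjusted p = 0.00559). Slc12a4, a widely expressed potassium-chloride cotransporter, had medians of 24.2 and 41.3 CPM (log2 fold change 0.71, SE 0.19, edgeR adjusted p = 0.0251). Its call was lost without normal nerve replicate 4 or 5 or tumour replicate 2, 4 or 6, and without the 3 libraries that stood apart (adjusted p = 0.0574).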

How the data were processed

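RNA was measured by sequencing in 6 samples of normal trigeminal nerve and 6 of plexiform neurofibroma. Per the labels' protocols, libraries were made from polyA RNA; they name a stranded kit and a second one without saying which library had which. The table the authors deposited holds estimated counts by symbol, not normalized. The submitters' processing notes name build mm10 and the tools STAR 2.4.2a, FastQC, DESeq2 and Salmon 0.60. What each tool did, and the annotation and strand of the counting, is not given in the sources used here. Estimates of this kind can split reads between near-identical genes.

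Expected counts were rounded to whole numbers, filtered with filterByExpr (17236 genes left) and tested in R 4.3.3 with edgeR 4.0.16 (robust quasi-likelihood F test, TMM normalization, group as the only term). Benjamini-Hochberg adjustment covered all tested genes. SE is the absolute log2 fold change divided by the square root of F. Gene coordinates and lengths are those of GENCODE vM21 on GRCm38, the assembly of mm10, and the longest transcript gives CPM per kb. Promoter windows use RefSeq starts. The fit was also tested on simulated counts.

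Members, lists and tests were chosen with earlier results of these data known. Named are all members called or with groups apart, the most abundant member of each role, the largest uncalled rise and fall, those nearest the expression limit, up to 4 called genes each way of each of the partner and transport lists, and Nf1. Every other member that is named was chosen after its values were seen, as were Cntn2, Abcc8 and Vapb. A few genes that this rule would name are not reported here, though they stay in the fits and the counts. Alternatives were upper-quartile and RLE factors, no filter, CPM above 1 in 6 samples, DESeq2 1.42.0, limma-voom (limma 3.58.1) with sample weights, marker scores as covariates (sensory neuron, CNS glia, skeletal muscle), a transcript length correction (lowess, span 0.3), and each library left out. A fit without 3 libraries (muscle markers above 100 CPM or CNS glia markers above 1000 CPM) was chosen after seeing the data. Total counts of 14160025 to 19989351 per library set the precision, with the spread between samples.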

Additional observations from a re-analysis of the deposited data

Results flagged for a closer look

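In 112 groups of 6 libraries, 16 had a highest or lowest library far from the others, with a gap over 0.625 of the group's range; chance gives about 1 in 20. Normal nerve replicate 6 accounted for 9 of the 16. It was highest of its group for Kcnc1 at 95.5 CPM, Kcnk2 at 40.0, Kcnj10 at 213, Kcnn3 at 22.8 and Kcnj6 at 4.12 CPM. Among the partner and transport genes it was highest for Dlg4 at 204 and Slc12a5 at 154 CPM. Its summed CNS glia markers were highest at 2206 CPM and its summed nonmyelinating Schwann cell markers lowest at 1222 CPM. Tumour replicate 4 was highest for Kcnmb4os2 at 6.59 CPM. Tumour replicate 1 was highest for CNS glia markers at 662 CPM and for skeletal muscle markers at 1654 CPM, and normal nerve replicate 3 for skeletal muscle markers at 396 CPM. Tumour replicate 2 was highest for mural cell markers at 611 CPM, and normal nerve replicate 2 was lowest for fibroblast markers at 142 CPM. Tumour replicate 6 was highest of the tumours for pituitary markers at 25.6 CPM. It lay within the range of normal nerve, 6.09 to 69.7 CPM (median 20.8).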

How the results depend on the processing

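The number of members that rose stayed between 5 and 9 under every setting run. The number that fell, 18 with all libraries, ranged from 10 to 26 over the 12 fits that leave out 1 library. It was 12 with no filter (2.80% of all tested genes fell), 12 with the length correction (6.47%), 27 with limma-voom (15.7%), 21 with DESeq2 (9.88%), 16 with the skeletal muscle score (8.13%) and 23 without the 3 libraries that stood apart (10.9%). Partner genes that rose were 2, and 1 without those 3 libraries. Partner genes that fell, 7 with all libraries, were 11 with DESeq2, 14 with limma-voom, 13 with the CNS glia score and 4 with the length correction. With 1 library left out they were 5 to 14, and the cause was not tested. The share of all tested genes that fell moved as well. It was 11.4% with the CNS glia score, ran from 4.62% to 14.2% with 1 library left out, and is given above for the rest. Transport genes that rose ranged from 3 to 6 and those that fell from 3 to 4 with 1 library left out. Among 43 genes compared across settings, Kcna2 turned below 0 with limma-voom (-0.0642), with the CNS glia score (-0.0074) and without the 3 libraries (-0.11), and ranged from -0.0796 to 0.0930 with 1 library left out. Kcne4 turned above 0 with the CNS glia score (0.0257) and without the 3 libraries (0.46), and ranged from -0.41 to 0.12 with 1 library left out. Neither gene was called, and no other of the 43 changed direction. Over all 76 members, 13 changed sign under at least 1 setting, Kcnd2, Kcnj16 and Kcnf1 among them, and 0 of the 13 were called. RLE and upper-quartile factors changed no call or direction among the 43. No paired analysis was possible because the labels give no replicate numbers that link a normal nerve to a tumour. Genes near 1 CPM, such as Kcne4, Kcnk6 and Kcng1, rest on few counts.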
